A study of Mus musculus with 6 samples.

Results

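Ribosome biogenesis factors are the proteins that make and assemble ribosomes but are not part of the finished particle. Here 40 such genes were followed in colon tumors and colon tissue of mice. They were taken from the gene table by symbol, all 40 symbols were found among its 33573 rows, and all 40 passed the filter on low counts that left 18520 genes for testing. The members were sorted by role into 4 nucleolar proteins of broad function, 3 proteins of RNA polymerase I transcription, 4 proteins of the box C/D and U3 particles, 4 proteins of the box H/ACA particles, 9 small subunit assembly factors and 16 large subunit assembly factors.

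The tissue came from male C57BL/6 mice in which azoxymethane (AOM), a DNA-alkylating carcinogen, was given by injection and followed by repeated cycles of dextran sodium sulfate (DSS), which injures the colon epithelium, in the drinking water. The 3 tumor and the 3 colon libraries carry the numbers 2, 4 and 20, and since tumor and colon were taken in pairs, equal numbers were read as pairs. Both groups came from AOM/DSS-treated animals, so the colon libraries are not from untreated mice, and all the mice were of one strain with no transgene named. Whole tissue pieces were used for stranded mRNA sequencing, although the labels describe the tumor libraries as tumor cells. A rise or fall of a member below is that of its mRNA, and proteins were not measured in these libraries.

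In the nucleolus, RNA polymerase I copies the ribosomal DNA into one long precursor RNA. Small nucleolar ribonucleoproteins (snoRNPs) guide the chemical modification of this RNA, box C/D particles for ribose methylation and box H/ACA particles for pseudouridine, and the U3 particle takes part in its cleavage. Assembly factors then fold, cut and export the precursors of the small and the large ribosomal subunit, and many of their genes are known targets of the transcription factor MYC.

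In tumor, 22 of the 40 members rose, 1 fell and 17 did not pass the test, which was edgeR's quasi-likelihood test at an adjusted p under 0.05 over all genes tested. Over all 18520 genes, 16.1% rose and 16.1% fell by the same rule, so that 55% of the members stood beside 16.1% of all genes among the increases and 2.5% beside 16.1% among the decreases. The shares of all genes given here and below were not matched for level. The median level was 14.4 FPKM (counts relative to exon length and library size) for the members and 5.11 FPKM for all genes tested. The increases were small. They ran from 1.25-fold for Pes1 to 1.92-fold for Gar1 with a median of 1.48-fold, and no member rose 2-fold. The fold change was above 0 on the log2 scale in 38 of the 40 members, beside 9358 of all 18520 genes. The median was 0.46 over the members and 0.01 over all genes. The single decrease was that of Utp20, a very large protein of the small subunit processome, which was 1.85-fold lower in tumor.

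The libraries separated in most members. All 3 tumor values lay above all 3 colon values in 30 members, which is 75% of them, beside 25.3% of all genes. All 3 lay below in Utp20 only, beside 24.2% of all genes. The 22 increases all belonged to the 30, and the other 8 were Dkc1, Bop1, Wdr12, Wdr74, Ppan, Noc2l, Noc3l and Gnl3, whose adjusted p in edgeR ran from 0.0511 to 0.148. Within each pair 36 members were higher in tumor and 4 were lower, with median log2 differences of 0.43 for number 2, 0.45 for number 4 and 0.46 for number 20. The tumor library was the higher one in all 3 pairs for 33 members. Counts within pairs were not made over all genes.

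**Figure D1:**
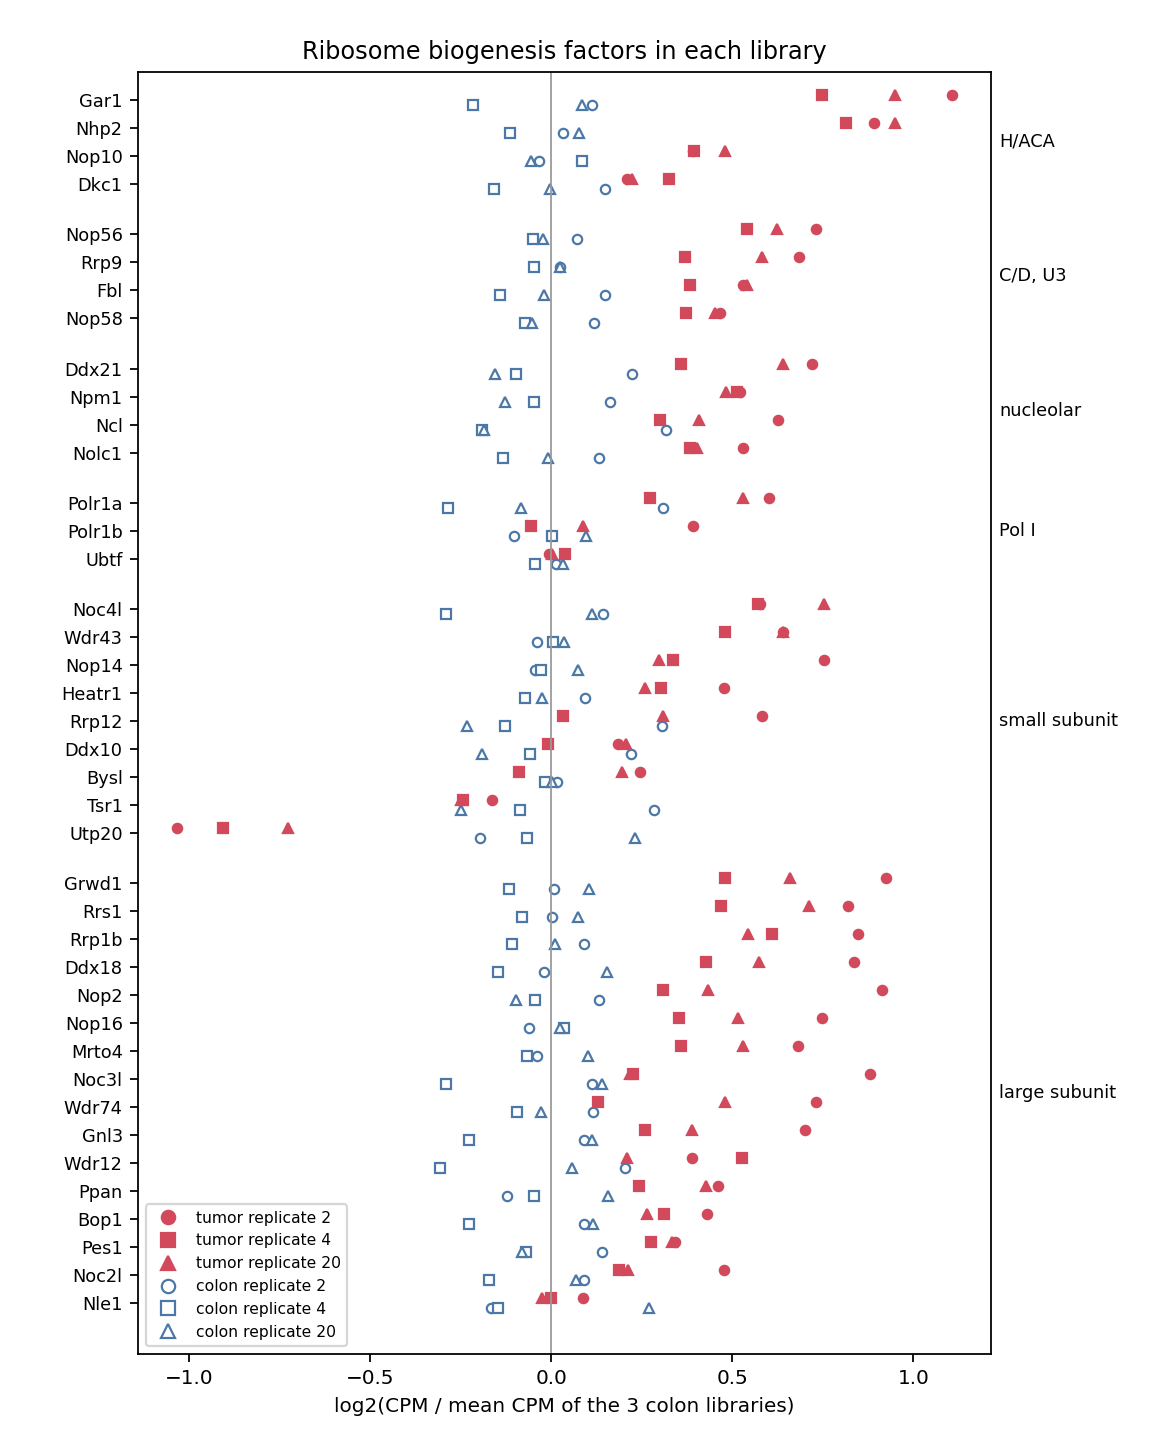
Level of each of the 40 members in each of the 6 libraries, as log2 of CPM over the mean CPM of the 3 colon libraries (horizontal axis), with members grouped by role. Filled red symbols are tumor and open blue symbols colon, with one symbol shape per replicate number. The tumor symbols lie to the right of all colon symbols in 30 members and to the left of them in Utp20.

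The number of increases depended on single libraries, the direction much less. Without tumor replicate 20 or without colon replicate 4, 9 members rose, and without colon replicate 20, 12 rose, while the share of all genes that rose went down as well, to 10.6%, 9.95% and 11.1%. In each of these fits Utp20 fell and no other member did. Npm1, Nop56, Gar1, Nhp2, Wdr43, Rrp1b and Rrs1, 7 members in all, rose in each of the 17 alternatives run, which changed the scaling, the filter, the test, the unit, the pairing or the libraries. Utp20 fell in each of them. Polr1b, Ubtf, Dkc1, Ddx10, Bysl, Tsr1, Rrp12, Wdr12, Nle1 and Noc3l passed the test in none.

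Markers of several cell types differed between the groups, and in whole tissue fewer cells of a type and less RNA per cell cannot be told apart. Total counts ran from 16995481 to 20789620 per library. All 10 smooth muscle markers were lower in tumor, with a summed level of 620.2 to 1266 CPM (counts relative to the scaled library total) in tumor and 9925 to 10284 CPM in colon, as were 7 of 8 markers of enteric neurons and glia and 3 of 4 of B and plasma cells. Of 6 macrophage and neutrophil markers 5 were higher in tumor, with sums of 219 to 326 CPM against 76.7 to 106 CPM. Of 6 fibroblast markers Col1a1 and Pdgfra were higher and Lum lower, with sums of 1651 to 2505 CPM in tumor and 1290.1 to 2028 CPM in colon. Of 5 endothelial markers Tek was lower and of 5 T cell markers Trac was higher, with sums of 104 to 165 and 7.62 to 18.7 CPM in tumor against 133 to 155 and 8.50 to 18.2 CPM in colon. No marker was at 0 in the mean of either group. The 12 epithelial markers summed to 9833 to 11253 CPM in tumor and 10014 to 11220 CPM in colon, with 3 higher and 0 lower, and of 10 proliferation genes, which summed to 754 to 1136 CPM in tumor and 736 to 915 CPM in colon, Tpx2 alone rose. With the libraries scaled to the 12 epithelial markers, 12 members rose and 1 fell, beside 2166 genes higher and 3727 lower of all genes in place of 2981 and 2987. The median of all genes then moved to -0.14 and that of the members to 0.30, since such a rescaling shifts all genes by nearly the same amount. What share of the members' differences goes with these markers was not tested.

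**Figure D2:**
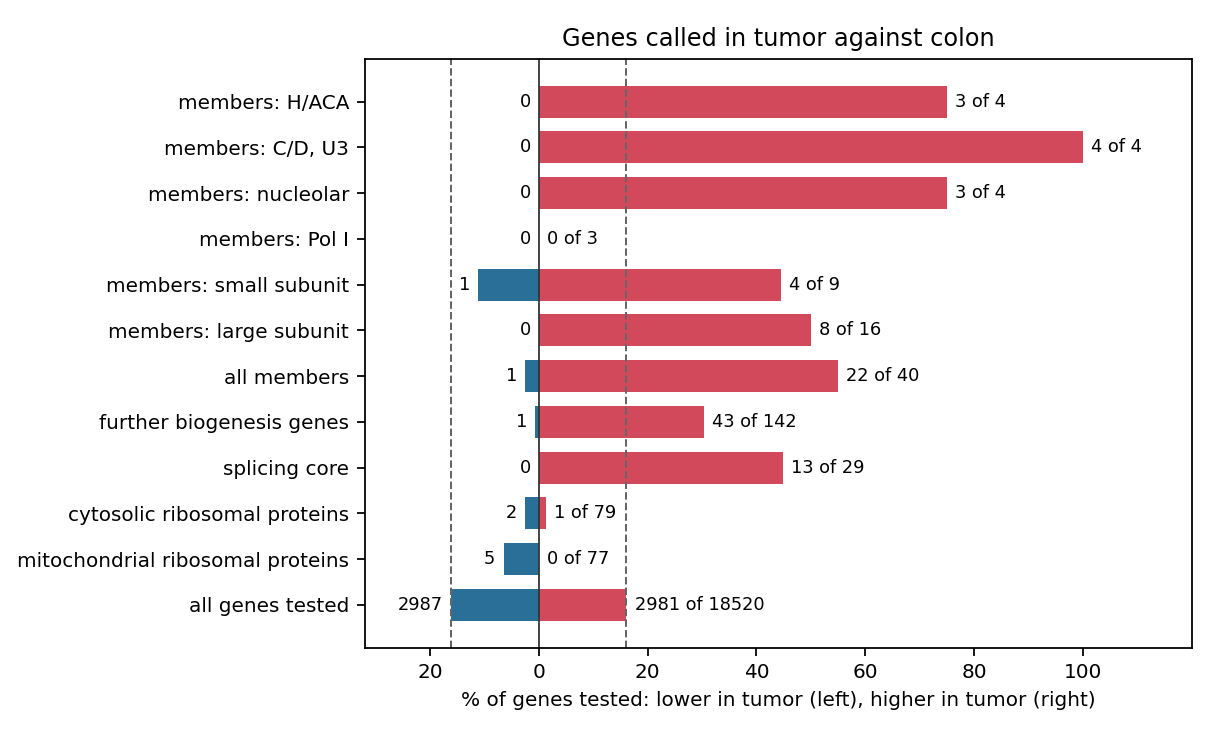
Percent of tested genes that were higher (red, to the right) or lower (blue, to the left) in tumor by edgeR at an adjusted p under 0.05, for the members by role, all 40 members, 142 further biogenesis genes, 3 comparison lists and all genes tested. Numbers give the genes called, and dashed lines mark 16.1% of all genes in either direction. The members of 5 of the 6 roles lie beyond the right line and those of RNA polymerase I do not. The latter are 3 genes, too few to tell their share from that of all genes. The nucleolar, box C/D and U3 and box H/ACA roles hold only 4 genes each. No role was tested against the share of all genes.

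The genes of the 4 box H/ACA proteins held the largest increases among the members. These particles convert uridines of ribosomal RNA to pseudouridine, and the same 4 proteins also sit on telomerase RNA. Gar1, a core protein of the particle (ENSMUSG00000028010, GRCm39 chromosome 3, 129618561 to 129625045), had 45.2, 35.2 and 40.5 CPM in tumor replicates 2, 4 and 20 and 22.7, 18.1 and 22.2 CPM in the colon replicates of the same numbers. Every tumor library was far above every colon library, and the log2 fold change was 0.94 ± 0.15 (SE, n = 3 and 3), with an edgeR adjusted p of 0.0045. Nhp2, its partner protein (ENSMUSG00000001056, GRCm39 chromosome 11, 51510562 to 51514541), had 72.8, 68.9 and 75.8 CPM in tumor and 40.1, 36.2 and 41.4 CPM in colon. The groups did not overlap, and with a log2 fold change of 0.89 ± 0.10 Nhp2 had the lowest adjusted p of the members in edgeR, 0.0013. Nop10, the smallest protein of the core, had 40.3, 40.4 and 42.8 CPM in tumor against 30.0, 32.6 and 29.6 CPM in colon, again without overlap, for a log2 fold change of 0.42 ± 0.11 and an edgeR adjusted p of 0.0216. Its call was lost with epithelial scaling, without tumor replicate 20 and without colon replicate 2 or 20. Dkc1, the pseudouridine synthase itself, differed least. Its tumor values of 44.3, 48.0 and 44.7 CPM lay just above the colon values of 42.5, 34.3 and 38.2 CPM, and its log2 fold change of 0.25 ± 0.12 did not pass the test (edgeR adjusted p = 0.143). In FPKM, which divides by exon length as well as by library size, the mean level in tumor was 65.8 for Nhp2, 38.6 for Nop10, 24.5 for Gar1 and 11.5 for Dkc1.

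The genes of all 4 box C/D and U3 proteins rose. Nop56, a scaffold protein of the box C/D particle (ENSMUSG00000027405, GRCm39 chromosome 2, 130116350 to 130121233), had 139, 122 and 129 CPM in tumor and 87.8, 80.8 and 82.4 CPM in colon. The groups stood well apart, with a log2 fold change of 0.63 ± 0.10 and an edgeR adjusted p of 0.0036. Nop58, the other scaffold, had 104, 97.7 and 103 CPM in tumor and 82.0, 71.8 and 72.8 CPM in colon, which did not overlap (log2 fold change 0.43 ± 0.10, edgeR adjusted p = 0.0154). Fbl, fibrillarin, the methyltransferase of the particle, had 98.9, 89.4 and 99.6 CPM in tumor and 75.9, 62.1 and 67.6 CPM in colon. These groups did not overlap either, and the log2 fold change was 0.48 ± 0.11 (edgeR adjusted p = 0.0161). Rrp9, which binds the U3 RNA, went from a mean of 23.4 ± 0.68 CPM (SD, n = 3) in colon to 34.3 ± 3.76 CPM in tumor, with an edgeR adjusted p of 0.0171. The calls of Nop58, Fbl and Rrp9 were lost without tumor replicate 20 and without colon replicate 4, where the adjusted p reached up to 0.065, those of Nop58 and Fbl also with epithelial scaling, and that of Nop58 also without colon replicate 20. Nop56 and Nop58 have snoRNA genes inside them, and these rows held at most 18 counts per group against 3999 or more for the host genes. Parp3 overlaps 987 bases of Rrp9 on the other strand, and a pseudogene, Fbl-ps2, held 623 counts in tumor and 530 in colon.

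Of the genes of nucleolar proteins of broad function, 3 of 4 rose. Npm1, nucleophosmin, an abundant nucleolar protein and histone chaperone, had 444, 442 and 433 CPM in tumor and 346, 299.6 and 283 CPM in colon. Its tumor libraries lay close together and above all colon libraries, and the log2 fold change was 0.51 ± 0.11 (edgeR adjusted p = 0.0121). It was the most abundant member per length, with a mean of 172 ± 5.23 FPKM (SD, n = 3) in tumor and 111 ± 13.8 FPKM in colon. Nolc1, a phosphoprotein that accompanies snoRNPs, had 112, 101 and 103 CPM in tumor and 85.0, 70.8 and 77.1 CPM in colon, without overlap (log2 fold change 0.44 ± 0.11, edgeR adjusted p = 0.0195). That call was lost with epithelial scaling and without tumor replicate 20 or colon replicate 4 or 20. Ddx21, an RNA helicase, had 212, 165 and 200.3 CPM in tumor and 150.0, 120.2 and 115 CPM in colon. Its lowest tumor value was above the highest colon value, and the log2 fold change was 0.58 ± 0.15 (edgeR adjusted p = 0.0224), a call that was lost without tumor replicate 2 or 20 and without colon replicate 4 or 20. Ncl, nucleolin, another abundant nucleolar RNA-binding protein, had 602, 480.3 and 518 CPM in tumor and 486, 342 and 343 CPM in colon. Colon replicate 2 lay above tumor replicate 4, so the groups overlapped, and the log2 fold change of 0.45 ± 0.17 had an edgeR adjusted p of 0.0822. With the pairs as a block the adjusted p of Ncl in edgeR was 0.0273 and Ncl rose.

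None of the 3 RNA polymerase I members passed the test in edgeR, DESeq2 or limma-voom, and 1, Polr1a, had an unadjusted p under 0.05 in edgeR. By edgeR 16.1% of all genes rose, and 3 members are too few to tell their count from that share. Polr1a, the largest subunit of the enzyme, had 77.2, 61.4 and 73.3 CPM in tumor and 62.9, 41.7 and 48.0 CPM in colon, where colon replicate 2 was above tumor replicate 4. Its log2 fold change of 0.47 ± 0.17 had an edgeR adjusted p of 0.0754, and 0.0305 with the pairs as a block. Polr1b, the next largest subunit, had 52.5, 38.5 and 42.5 CPM in tumor and 37.2, 40.03 and 42.8 CPM in colon. Only tumor replicate 2 stood above the colon range, and the log2 fold change was 0.15 ± 0.14 (edgeR adjusted p = 0.445). Ubtf, the factor that binds the ribosomal DNA promoter and bends it for transcription, had 179, 184 and 179.8 CPM in tumor and 181, 174 and 183 CPM in colon. The 6 libraries were nearly level, with a log2 fold change of 0.01 ± 0.09 (edgeR adjusted p = 0.927). The log2 fold change of Ubtf was -0.014 with upper quartile scaling and -0.14 with epithelial scaling, and that of Polr1b was -0.0065 with epithelial scaling.

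The small subunit factors were the least uniform group, with 4 of 9 higher and 1 lower. Wdr43, a protein that binds the precursor RNA at an early step (ENSMUSG00000041057, GRCm39 chromosome 17, 71922890 to 71966026), had 87.8, 78.6 and 87.8 CPM in tumor and 54.8, 56.6 and 57.8 CPM in colon. The groups were separated by more than the range of either, with a log2 fold change of 0.59 ± 0.10 and an edgeR adjusted p of 0.0045. Noc4l, a nucleolar protein that works with Nop14 in yeast, had 41.7, 41.5 and 47.1 CPM in tumor and 30.9, 22.8 and 30.2 CPM in colon, without overlap (log2 fold change 0.63 ± 0.15, edgeR adjusted p = 0.0173). Its call was lost in 1 alternative, without tumor replicate 20. Nop14, with a log2 fold change of 0.48, and Heatr1, a large repeat protein that also takes part in ribosomal DNA transcription, with 0.35, rose with edgeR adjusted p of 0.0463 and 0.0404. Neither passed the test in any of the 6 fits that left out 1 library. Over the 17 alternatives the lowest log2 fold change was 0.32 for Nop14 and 0.20 for Heatr1. With the pairs as a block the edgeR adjusted p of Nop14 was 0.0756. Heatr1 shares 875 bases with Lgals8 on the other strand.

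Utp20 (ENSMUSG00000004356, GRCm39 chromosome 10, 88582469 to 88662666) moved against the other called members. Its human counterpart was described under the name DRIM, for a transcript reduced in metastatic cells. It had 71.1, 77.6 and 87.9 CPM in tumor and 127, 139 and 171 CPM in colon. The highest tumor library was well below the lowest colon library, and Utp20 fell by 0.88 on the log2 scale (SE 0.14), with an edgeR adjusted p of 0.0046. Over the 17 alternatives the log2 fold change ran from -1.04 to -0.69, and the adjusted p was at most 0.0195. Per length, the mean was 8.04 ± 0.73 FPKM (SD, n = 3) in tumor and 13.6 ± 1.87 FPKM in colon. No other row of the table overlaps the gene.

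Tsr1, a GTPase-like protein of late small subunit maturation, was the other member with a lower mean in tumor. It had 101, 95.7 and 95.2 CPM in tumor and 138, 107 and 95.2 CPM in colon, so that colon replicates 2 and 4 lay above all tumor values and colon replicate 20 just below them. The log2 fold change of -0.22 ± 0.15 did not pass the test (edgeR adjusted p = 0.29). Tsr1 shares 2984 bases with Srr on the other strand, and if strand was ignored in counting, reads of such pairs cannot be told apart. Rrp12, an export factor, had a log2 fold change of 0.32 (edgeR adjusted p = 0.254). Ddx10, a helicase, and Bysl, bystin, stood at 0.13 and 0.12 with edgeR adjusted p of 0.521 and 0.477, and both were below 0 with epithelial scaling, at -0.024 and -0.035. Bysl shares 361 bases with Ccnd3 on the other strand.

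**Figure D3:**
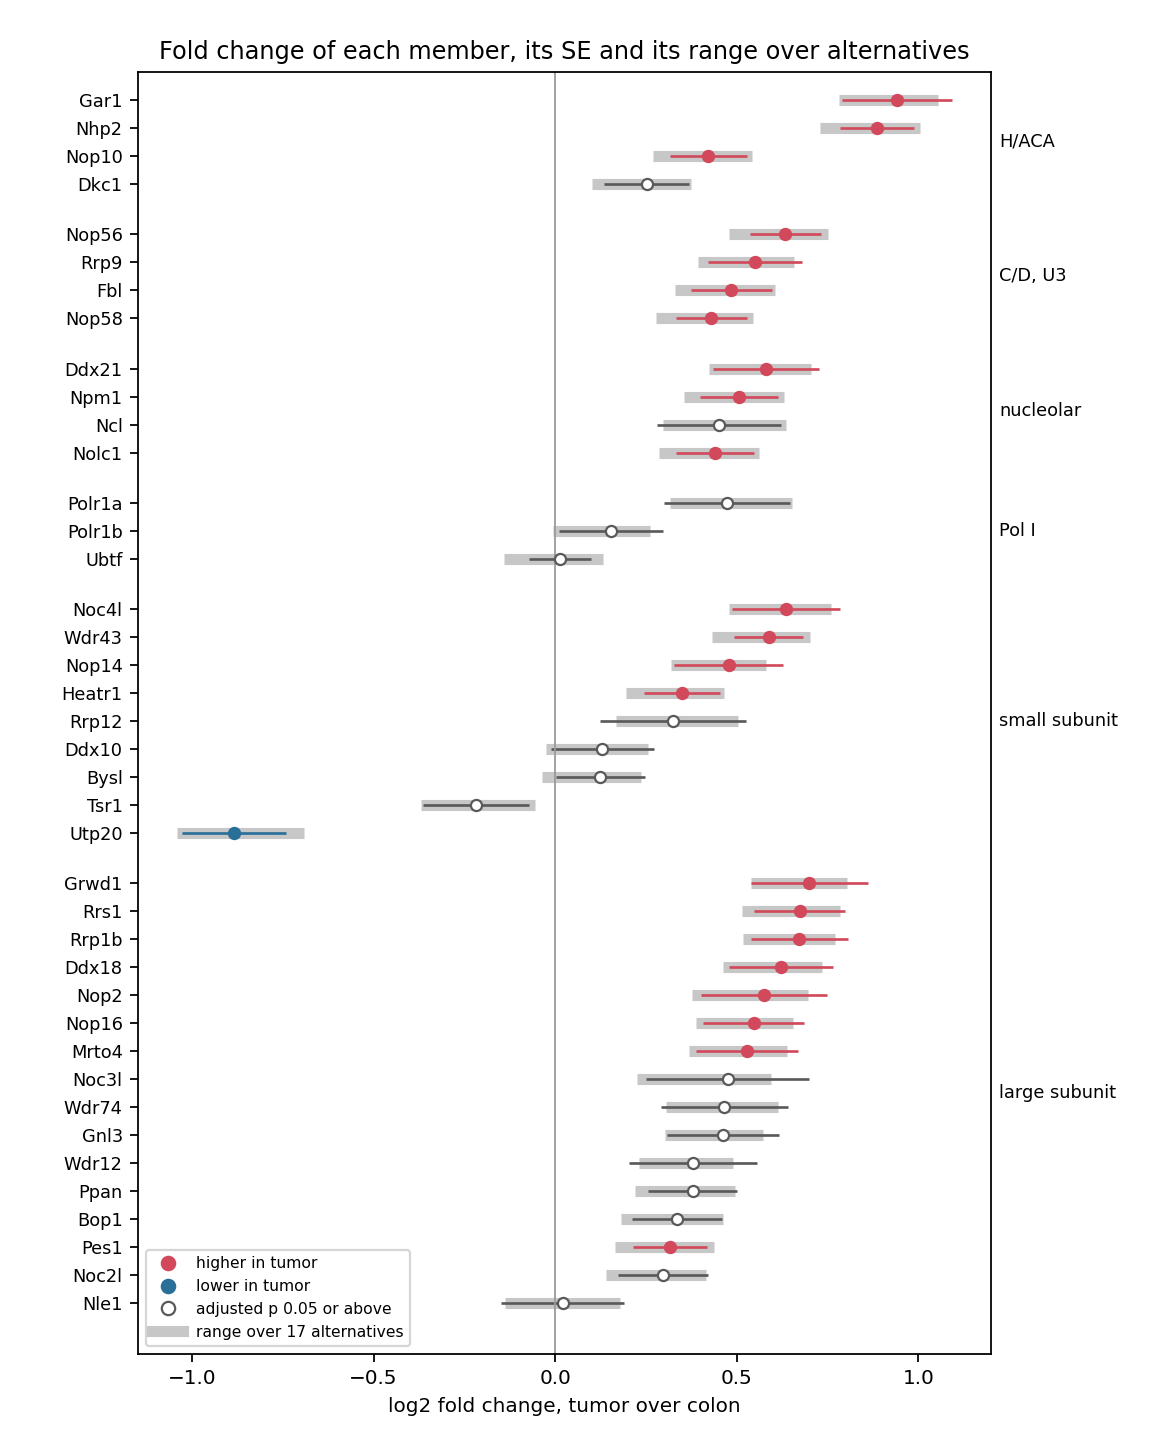
Log2 fold change of tumor over colon for each of the 40 members, grouped by role, with points for the edgeR estimate, thin bars for its SE (n = 3 and 3) and grey bars for the range over 17 alternatives. Red points are the 22 members called higher, the blue point is Utp20, and open points did not pass the test. The grey bar of Utp20 lies wholly between -1.04 and -0.69 and that of Gar1 between 0.78 and 1.06.

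Of the 16 large subunit factors 8 rose and 0 fell, and in 15 of them all tumor libraries lay above all colon libraries. Rrs1, which helps to build the part of the large subunit around its smallest RNA (ENSMUSG00000061024, GRCm39 chromosome 1, 9615633 to 9617680), had 58.5, 45.9 and 54.3 CPM in tumor and 33.2, 31.4 and 34.9 CPM in colon. No values overlapped, and the log2 fold change was 0.67 ± 0.13 (edgeR adjusted p = 0.0075). Rrp1b, a nucleolar protein whose human counterpart has been linked to metastasis risk, had 43.1, 36.5 and 34.9 CPM in tumor and 25.5, 22.2 and 24.1 CPM in colon, again without overlap (log2 fold change 0.67 ± 0.13, edgeR adjusted p = 0.0092). Ddx18, an RNA helicase, had 72.2, 54.4 and 60.2 CPM in tumor and 39.9, 36.5 and 45.0 CPM in colon. Tumor replicate 2 was the highest, the groups were apart, and the log2 fold change was 0.62 ± 0.14 (edgeR adjusted p = 0.0159), a call lost in 1 alternative, without colon replicate 4. Grwd1, whose yeast counterpart chaperones a ribosomal protein, had the greatest fold change of the large subunit members, 0.70 ± 0.16 on the log2 scale (edgeR adjusted p = 0.0162), from 16.7 ± 1.28 CPM (SD, n = 3) in colon to 27.2 ± 4.28 CPM in tumor, and was likewise lost without colon replicate 4.

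Nop2, an RNA methyltransferase long known as a proliferation antigen, had 87.7, 57.6 and 62.9 CPM in tumor and 51.0, 45.2 and 43.6 CPM in colon. Tumor replicate 2 was far above the other tumor libraries, and the log2 fold change was 0.57 ± 0.17 (edgeR adjusted p = 0.0406). Nop16, with a log2 fold change of 0.55, and Mrto4, which holds the place of a stalk protein on the precursor particle, with 0.53, had edgeR adjusted p of 0.023 and 0.0269. Nop2, Nop16 and Mrto4 passed the test in 11 of the 17 alternatives. They did so in only 1 of the 6 fits that left out a library, the one without tumor replicate 4. Their lowest log2 fold changes over the 17 alternatives were 0.38, 0.39 and 0.37, in the same order. A pseudogene of Mrto4, Mrto4-ps1, held 125 counts in tumor and 44 in colon.

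Pes1, Bop1 and Wdr12 form the PeBoW complex of large subunit assembly, and 1 of them passed the test, narrowly. Pes1 had 88.9, 84.9 and 88.3 CPM in tumor and 77.4, 66.9 and 66.4 CPM in colon, which did not overlap. Its log2 fold change was 0.32 ± 0.10 with an edgeR adjusted p of 0.0494, and 0.0631 with the pairs as a block. Pes1 passed the test in 1 of the 6 fits that left out a library. Its lowest log2 fold change over the 17 alternatives was 0.16. A gene on the other strand, 4930556J24Rik, overlaps 12804 bases of Pes1 and held 693 counts in tumor and 457 in colon, against 5267 and 3716 for Pes1. Bop1 had a log2 fold change of 0.34 ± 0.12 (edgeR adjusted p = 0.0756) and Wdr12 one of 0.38 ± 0.18 (edgeR adjusted p = 0.141), in both cases with all tumor values above all colon values. Wdr12 was the member with the lowest level per length, 2.19 FPKM in tumor and 1.55 FPKM in colon, counted over exons of 11955 bases in all.

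The other large subunit members did not pass the test. Noc3l, a partner of Noc2l in yeast, stood at a log2 fold change of 0.48 ± 0.22, Wdr74, a WD-repeat protein of the precursor particle, at 0.47 ± 0.17, Gnl3, the GTPase nucleostemin of stem and tumor cells, at 0.46 ± 0.15, Ppan at 0.38 ± 0.12 and Noc2l at 0.30 ± 0.12, all without overlap of the groups. Their adjusted p in edgeR were 0.148, 0.0807, 0.0573, 0.0511 and 0.110, in the same order. With the pairs as a block Gnl3 rose (edgeR adjusted p = 0.0362). Nle1, a WD-repeat protein of a late step, had a mean of 17.7 ± 0.73 CPM (SD, n = 3) in tumor and 17.5 ± 3.12 CPM in colon. Its log2 fold change of 0.02 (edgeR adjusted p = 0.938) was below 0 with upper quartile and epithelial scaling.

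The tumor libraries differed among themselves in how high the members stood. Tumor replicate 2 was the highest tumor library in 31 of the 40 members and replicate 4 the lowest in 27, whereas replicate 2 was the highest in 36.2% of all genes and replicate 4 the lowest in 34.2%. Summed over the members, tumor replicates 2, 4 and 20 held 3746, 3249.8 and 3450.3 CPM. The colon replicates of the same numbers held 2936, 2502 and 2633 CPM, and replicate 4 was the lowest colon library in 25 members. The lowest tumor sum was above the highest colon sum. Marker sums also differed among tumor replicates 2, 4 and 20, with 620.2, 1266 and 875 CPM for smooth muscle and 2505, 1651 and 2196 CPM for fibroblasts. In the same order they were 326, 219 and 234 CPM for macrophages and neutrophils and 754, 1136 and 967 CPM for proliferation genes. Replicate 2 was thus highest in the members, fibroblast and macrophage and neutrophil markers and lowest in smooth muscle and proliferation genes, replicate 4 the reverse, and the part of these in the members' order was not tested. In the members' summed CPM, number 2 was highest and number 4 lowest in both tissues. The members' tumor sum exceeded their colon sum in each pair.

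A CACGTG element, the E-box that MYC and related factors bind, was searched in promoter windows of 300 bases, from 250 before to 50 after the annotated start, taken from RefSeq on GRCm38.p6. The element reads the same on both strands, and no other motif was searched. A window was found for 35 of the 40 members (not for Rrs1, Rrp12, Bop1, Npm1 and Fbl), and 7 of the 35, or 20%, held the element, beside 8.09% of all genes with a window. By window, it was in 7 of the 44 windows of members (15.9%) and in 7.15% of all 32851. The genes with a window number 27025, more than the 18520 tested, so they include genes outside the test. They were not matched to the members for level. With 7 members holding the element, no difference from these shares was tested. It was found in Nop2, Pes1, Wdr43 and Grwd1, which rose, in Utp20, which fell, and in Nle1 and Tsr1, which did not pass the test. Thus 4 of 19 matched members that rose held it, and 2 of 15 that did not pass. A match is a string of letters and was not tested for binding. The windows of the 5 called members that hold the element are printed 5′ to 3′ on the strand of the gene, with the element in capitals. They lie at chr6:125131633-125131932 (plus strand) for Nop2, chr11:3963725-3964024 (plus) for Pes1, chr17:71615965-71616264 (plus) for Wdr43, chr7:45830740-45831039 (minus) for Grwd1 and chr10:88826765-88827064 (minus) for Utp20.
Nop2: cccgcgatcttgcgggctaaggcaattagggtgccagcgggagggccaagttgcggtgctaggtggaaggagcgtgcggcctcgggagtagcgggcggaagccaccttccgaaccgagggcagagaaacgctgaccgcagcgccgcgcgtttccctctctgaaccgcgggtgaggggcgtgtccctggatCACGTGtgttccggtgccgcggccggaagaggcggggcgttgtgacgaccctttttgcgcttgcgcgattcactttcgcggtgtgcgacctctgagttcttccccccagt
Pes1: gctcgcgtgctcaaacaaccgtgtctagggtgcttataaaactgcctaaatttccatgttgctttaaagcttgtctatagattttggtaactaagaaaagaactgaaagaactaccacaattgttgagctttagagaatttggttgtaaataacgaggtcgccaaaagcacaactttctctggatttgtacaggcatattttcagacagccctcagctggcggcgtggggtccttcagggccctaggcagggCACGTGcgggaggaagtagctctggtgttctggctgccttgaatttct
Wdr43: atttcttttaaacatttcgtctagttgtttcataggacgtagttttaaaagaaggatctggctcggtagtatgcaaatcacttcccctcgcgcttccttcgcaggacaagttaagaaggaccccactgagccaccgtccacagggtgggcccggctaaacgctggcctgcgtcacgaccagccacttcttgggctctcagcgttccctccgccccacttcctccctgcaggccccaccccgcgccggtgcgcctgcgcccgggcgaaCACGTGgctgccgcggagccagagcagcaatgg
Grwd1: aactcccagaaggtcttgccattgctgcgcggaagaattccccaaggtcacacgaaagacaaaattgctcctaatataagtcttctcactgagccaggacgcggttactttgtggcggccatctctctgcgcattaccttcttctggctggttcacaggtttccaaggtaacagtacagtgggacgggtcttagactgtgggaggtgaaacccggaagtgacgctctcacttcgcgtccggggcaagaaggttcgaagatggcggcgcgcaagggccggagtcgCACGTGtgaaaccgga
Utp20: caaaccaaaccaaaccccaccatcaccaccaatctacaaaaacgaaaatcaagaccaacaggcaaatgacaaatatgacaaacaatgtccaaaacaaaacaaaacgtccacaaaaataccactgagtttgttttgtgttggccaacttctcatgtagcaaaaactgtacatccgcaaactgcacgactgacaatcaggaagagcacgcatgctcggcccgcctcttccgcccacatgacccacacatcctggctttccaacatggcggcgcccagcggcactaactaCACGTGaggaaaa
Counted from 1 at the start of the window, the element begins at base 191 in Nop2, 253 in Pes1, 268 in Wdr43, 285 in Grwd1 and 288 in Utp20, so that in Nop2 it lies before the annotated start and in the others after it. Myc itself had 104, 77.5 and 102 CPM in tumor and 26.5, 33.2 and 47.1 CPM in colon. It rose by 1.40 ± 0.23 on the log2 scale (edgeR adjusted p = 0.0045), with no overlap. Whether the members' levels go with Myc was not tested.

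A wider list of 142 further ribosome biogenesis genes, 2 more having no row under their symbol, was read in the same fit. Of these 43 rose (30.3%) and 1 fell, with a median log2 fold change of 0.29. Ltv1, an export adaptor of the small subunit, had the greatest increase of the called ones named here, from 28.1 ± 4.14 CPM (SD, n = 3) in colon to 67.0 ± 10.4 CPM in tumor, which is 1.25 ± 0.17 on the log2 scale (edgeR adjusted p = 0.0022). Gtpbp4, a GTPase of the large subunit precursor, Rsl1d1, a nucleolar protein, Nol10 and Wdr3, both of small subunit processing, rose by 0.78, 0.65, 0.93 and 0.60 on the log2 scale, with edgeR adjusted p between 0.0028 and 0.0045. The one decrease was that of Utp11, another small subunit processome protein, from 50.3 ± 1.49 to 36.4 ± 2.08 CPM, by 0.46 on the log2 scale (edgeR adjusted p = 0.0131). By role, 20 of 53 large subunit genes rose, 14 of 47 small subunit genes, 3 of 16 snoRNP and modification genes, 3 of 15 exosome and trimming genes and 3 of 11 further RNA polymerase I genes. In the same order 37.7%, 29.8%, 18.8%, 20% and 27.3% rose, beside 16.1% of all genes. The last 3 roles hold 16, 15 and 11 genes, and in lists this short their counts are not told apart from that share. No difference between roles was tested. The 3 of RNA polymerase I were Polr1e, Rrn3 and Taf1d. Without tumor replicate 20, 19 of the 142 rose, without colon replicate 4, 21, without colon replicate 20, 23, without tumor replicate 2, 27, and with epithelial scaling 20 rose and 4 fell.

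Other parts of the machinery of gene expression were read in the same fit, with few increases in some lists and many in the splicing genes. Of 79 cytosolic ribosomal protein genes, which encode the parts of the finished particle, 1 rose and 2 fell, with a median log2 fold change of -0.12. The fold change was above 0 on the log2 scale in 17 of the 79. All tumor values lay below all colon values in 30 of them and above in 5, beside 24.2% and 25.3% of all genes. By unadjusted p under 0.05 in edgeR, 3 were higher and 8 lower. Rpl13a rose, at 20.1 CPM in tumor and 10.7 CPM in colon, and Rpl21 and Fau fell. Such genes have many processed copies in the genome, and no source states how reads were shared among them. Of 77 mitochondrial ribosomal protein genes 0 rose and 5 fell, with a median of -0.09. DESeq2 and limma-voom also found 0 higher, with 9 and 4 lower. By unadjusted p under 0.05 in edgeR, 1 of these 77 was higher and 13 were lower, and 29 of the 40 members were higher and 1 was lower, beside 22.1% of all genes higher and 21.7% lower.

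Of 29 core splicing genes 13 rose and 0 fell, with a median of 0.38 against 0.46 for the members. The fold change was above 0 on the log2 scale in all 29. All tumor values lay above all colon values in 24 of the 29, beside 30 of the 40 members. By unadjusted p under 0.05 in edgeR 22 of the 29 were higher, beside 29 of the 40 members. Separation of the groups was thus not particular to the members. RNA polymerase II had 2 of 8 subunits higher and 0 lower, and RNA polymerase III 2 of 11 higher and 1 lower. Between the members and these lists no difference was tested. Under limma on log2(FPKM + 1), where all genes gave 3860 higher and 2350 lower, 28 members rose, Utp20 fell, and the comparison lists together had 34 higher and 0 lower in place of 18 and 8. With epithelial scaling these lists had 8 higher and 34 lower.

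**Figure D4:**
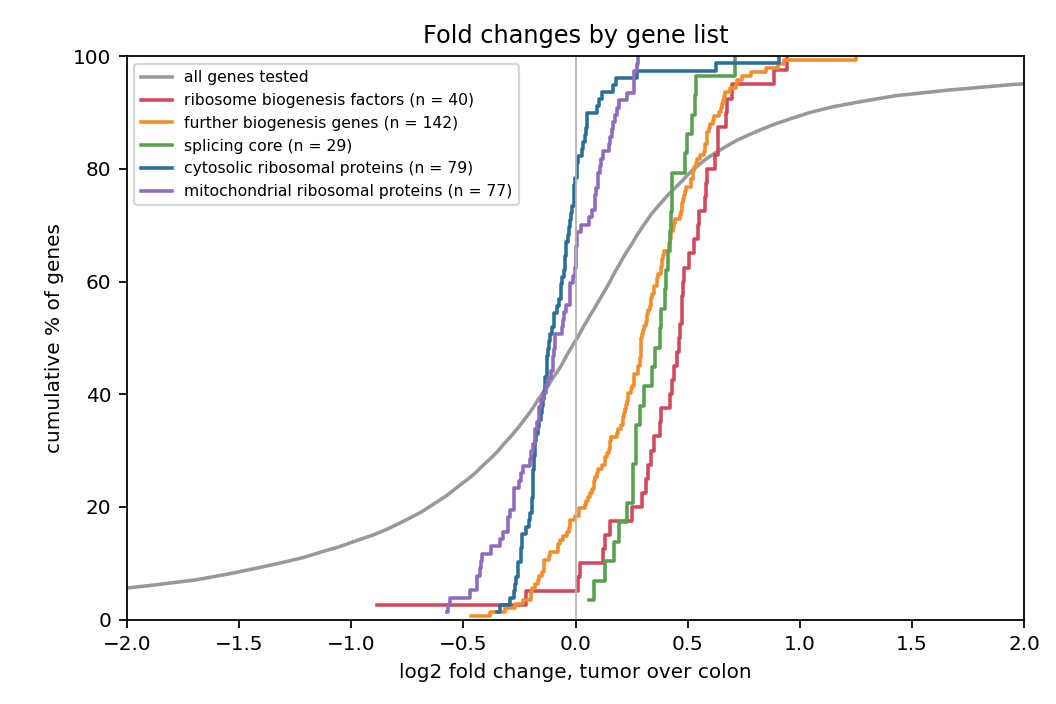
Cumulative percent of genes (vertical axis) by log2 fold change of tumor over colon (horizontal axis) for the 40 members, the 142 further biogenesis genes, 29 core splicing genes, 79 cytosolic and 77 mitochondrial ribosomal protein genes and all genes tested. The curve of the members crosses 50% at 0.46 and that of the cytosolic ribosomal proteins at -0.12. The axis is drawn from -2 to 2, which leaves out the tails of all genes.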

How the data were processed

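RNA from 3 tumor and 3 colon pieces was sequenced as stranded mRNA libraries. The authors deposited 1 table with fragment counts per gene, and the FPKM values in it were computed by the authors from exon fragments, mapped reads and exon length. Cutadapt, HISAT and the GRCm39 build are named in the submitters' processing notes. For versions, for the counter and for whether it used strand, nothing is given in the sources used here. Exon lengths recovered from counts and FPKM were whole within 0.01 bases for 100% of values from counts of 50 or more.

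Counts were filtered with filterByExpr, scaled by TMM and tested with the quasi-likelihood test of edgeR 4.0.16 (R 4.3.3, prior count 2) as unpaired groups, with Benjamini-Hochberg adjustment over 18520 genes. CPM are TMM-scaled. DESeq2 1.42.0, limma 3.58.1, other scalings, filters, units (log2 of FPKM plus 1 or 0.1), a replicate block and leaving out each library were alternatives. The code was tested on simulated data.

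Pairs came from the protocol and the titles. Deviations from the group means correlated at 0.19, 0.12 and 0.02 for equal numbers 2, 4 and 20, and between -0.20 and 0.12 for unequal ones. No label states that a number stands for 1 animal, and p-values therefore refer to the variation among these 6 libraries, which may be technical. Libraries of 1 group differed beyond counting noise, with chi-square per degree of freedom of 25.1 to 72.7. All 6 were counted as separate samples, and whether any are repeat preparations of 1 sample was not tested.

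The members and the gene lists were chosen with earlier results of these data known. Values in every library are given by a fixed rule, for the 3 members of each role with the lowest adjusted p, the one with the highest mean FPKM and any member that fell, and for Dkc1, Ncl and Nop2, added after their values were seen. Of the further genes, the 5 with the lowest adjusted p in each direction are named, and Polr1e, Rrn3 and Taf1d were named after their values were seen. Of the members, 20 are overlapped by another row, 14 of them by a protein-coding gene on the other strand. Total counts per library ran from 16995481 to 20789620.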

Additional observations from a re-analysis of the deposited data

How the results depend on the processing

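With the replicate block (equal numbers as pairs) 23 members rose and 1 fell, 20 of the 22 increases being shared. Ncl, Polr1a and Gnl3 were gained and Nop14 and Pes1 lost, and the block changed no other call of a member. The block gave 40 further genes higher, 1 lower, and a members' median of 0.46.

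Upper quartile scaling gave a median log2 fold change of the members of 0.44, 2 further genes lower, and log2 fold changes of -0.014 for Ubtf and -0.0061 for Nle1. Epithelial scaling gave 12 members, 20 further genes and 8 genes of the comparison lists higher, 4 further and 34 comparison genes lower, a median of 0.30, and 2 members with all tumor values below all colon values. It also gave log2 fold changes of -0.0065 for Polr1b, -0.14 for Ubtf, -0.024 for Ddx10, -0.035 for Bysl and -0.14 for Nle1. Without a count filter 2 comparison genes were lower. DESeq2 gave 2 further and 15 comparison genes lower. Limma on log2(FPKM + 1) and log2(FPKM + 0.1) gave medians of 0.53 and 0.57, with the median of all genes at 0.09 and 0.12, and 34 comparison genes higher and 0 lower in both. The causes were not tested.

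Leaving out 1 library gave 9 to 22 members higher and 1 lower, 19 to 44 further genes higher and 1 to 2 lower, 8 to 14 comparison genes higher and 0 to 8 lower, medians of 0.38 to 0.53, and 1 to 2 members with all tumor values below all colon values. The log2 fold change of Nle1 ran from -0.060 to 0.18 in these fits and that of Ubtf from -0.0092 to 0.030. Under DESeq2, limma-voom and the block no count of non-overlapping members was made. Of 17 members that did not pass the test, 7 did so in at least 1 alternative.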

Other observations

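Many box C/D snoRNAs, the RNAs that the Nop56, Nop58 and Fbl proteins carry, are cut from introns of spliced non-coding host genes. After the data had been seen, 17 snoRNA host genes were listed by symbol, Gas5 and the genes named Snhg with a number. Which class of snoRNA each of them carries was not looked up. Of the 17, 15 passed the filter on low counts. In edgeR at an adjusted p under 0.05, 6 of these rose (40%) and 1 fell (6.67%), with a median log2 fold change of 0.42. Over all genes, 16.1% rose and 16.1% fell. The list holds only 15 tested genes, and its difference from these shares was not tested. All tumor values lay above all colon values in 9 of the 15 and below in 1, beside 25.3% and 24.2% of all genes. Snhg6 rose from 9.99 ± 1.18 CPM (SD, n = 3) in colon to 20.5 ± 3.21 CPM in tumor, a log2 fold change of 1.04 ± 0.18 (edgeR adjusted p = 0.00602), and Snhg5 from 19.7 ± 1.58 to 34.9 ± 4.07 CPM (0.83 ± 0.14, edgeR adjusted p = 0.00549). Gas5 rose as well, from 101 ± 1.96 to 134 ± 3.85 CPM. Snhg12, Snhg15 and Snhg17 rose by 0.49, 0.81 and 0.64 on the log2 scale. Snhg18 fell by 1.63 on that scale, from 35.1 ± 9.80 to 11.4 ± 4.33 CPM. The libraries were made from mRNA, so the host transcripts were read here and the snoRNAs were not compared.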
